A study of Mus musculus with 42 samples.

Results

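Voltage-gated calcium channel genes were examined in sensory ganglia of BALB/c mice, a common inbred strain, here under normal housing, on Affymetrix arrays, where each transcript is read as signal intensity by 1 or more probe sets of short oligonucleotides. The set was defined by gene name: the pore-forming α1 genes Cacna1a, Cacna1b, Cacna1c, Cacna1d, Cacna1e, Cacna1h and Cacna1i and the auxiliary α2δ genes Cacna2d1, Cacna2d2 and Cacna2d3, each through every probe set annotated to that symbol alone. Of the 10 genes, 9 had such a probe set, out of 18337 genes named on the 2 array types, and Cacna1i had none in the annotation used here. MG-U74Av2 carried 8 probe sets for 7 of the genes, and Mouse430_2 carried 25 probe sets for all 9. There were 6 groups on 42 arrays. Whole nodose ganglia (NG, n = 7) and whole dorsal root ganglia (DRG, n = 5) were lysed and read on MG-U74Av2. Visceral sensory neurons taken by laser capture, a cut of chosen cells from a tissue section, of about 150 neurons a sample, were read on MG-U74Av2 (NG n = 5, DRG n = 5) and on Mouse430_2 (NG n = 11, DRG n = 9). Every group was of normal mice with no treatment, transgene or deletion named in the labels, and the sources used here give no age, sex or pooling of animals. The sample descriptions call all samples captured neurons, but the extraction protocol and design name whole ganglia for the first experiment, and these were followed. The sources used here do not say how visceral neurons were recognised. The label protocols name total RNA for whole ganglia and for Mouse430_2, while captured neurons on MG-U74Av2 have amplified RNA there. The sources used here do not say whether the Mouse430_2 RNA was amplified first. The log2 ratio of the 3′ to the 5′ probe set of actin, a sign of shortened RNA, was 5.71 ± 0.37 in NG and 5.61 ± 0.27 in DRG on Mouse430_2. The labels do not tie samples to separate animals, and p-values therefore reflect no more than the spread among these samples, which can be technical.

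Voltage-gated calcium channels open on depolarisation and let calcium into the neuron, where it triggers transmitter release, shapes firing and signals to the nucleus. The α1 subunit forms the pore and sets the current type: Cacna1a gives P/Q-type, Cacna1b N-type, Cacna1c and Cacna1d L-type, Cacna1e R-type, and Cacna1h and Cacna1i low-threshold T-type currents. The α2δ subunits sit on the outer face and raise the number of channels at the membrane and at release sites. In DRG neurons N-type channels carry much of the release of pain transmitters in the spinal cord, Cacna1h supports burst firing of low-threshold mechanoreceptors, and the protein of Cacna2d1 is the main binding site of gabapentin. NG neurons are vagal afferents from the viscera that end in the brain stem.

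The results below turn on the α2δ genes. In captured NG neurons on Mouse430_2, Cacna2d1 was lower, Cacna2d3 higher and Cacna2d2 not detectably different at its bright probe set. Captured neurons on MG-U74Av2 also had Cacna2d3 higher in NG, but Cacna2d1 did not differ detectably there. The 250 bases before the start of each gene are therefore shown, from RefSeq on GRCm38.p6, 5′ to 3′ on the gene's strand. Every match to GGGCGG or its reverse complement CCGCCC (the core of a GC box) is in capitals. The stretch of Cacna2d1 lies at chr5:15934441-15934690 on the plus strand, that of Cacna2d2 at chr9:107399630-107399879 on the plus strand and that of Cacna2d3 at chr14:29721865-29722114 on the minus strand.
Cacna2d1: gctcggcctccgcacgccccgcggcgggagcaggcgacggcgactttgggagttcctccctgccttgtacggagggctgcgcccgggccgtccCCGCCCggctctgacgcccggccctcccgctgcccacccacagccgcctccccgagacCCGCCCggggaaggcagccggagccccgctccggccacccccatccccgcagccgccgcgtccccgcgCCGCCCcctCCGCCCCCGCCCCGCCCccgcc
Cacna2d2: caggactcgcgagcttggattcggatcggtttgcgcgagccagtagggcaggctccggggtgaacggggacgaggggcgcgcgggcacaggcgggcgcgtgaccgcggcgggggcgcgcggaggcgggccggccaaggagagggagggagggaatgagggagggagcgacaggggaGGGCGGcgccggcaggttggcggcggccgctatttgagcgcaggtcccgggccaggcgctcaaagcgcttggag
Cacna2d3: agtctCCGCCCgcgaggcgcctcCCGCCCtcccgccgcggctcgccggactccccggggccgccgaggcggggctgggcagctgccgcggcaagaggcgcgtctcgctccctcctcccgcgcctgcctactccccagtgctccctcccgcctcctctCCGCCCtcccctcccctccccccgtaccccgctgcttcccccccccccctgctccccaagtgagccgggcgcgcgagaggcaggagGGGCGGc
The motif GGGCGG, read on both strands with overlapping matches counted, occurred 6 times in the Cacna2d1 stretch, 1 time in that of Cacna2d2 and 4 times in that of Cacna2d3, and 32.7% of the 32851 gene starts in the table hold it in the same window. GC content was 82.4%, 74.4% and 80.0% in the same order of genes, with a median of 52.4% over all these windows. No match on either strand was present in the 3 stretches to the CCAAT box (CCAAT, held by 33.8% of all windows), the TATA box (TATAAA, held by 12.4%), the cyclic AMP element (TGACGTCA, held by 1.5%) or the E-box (CACGTG, held by 6.0%). No binding or methylation was measured here, and a motif match is a description of the letters only.

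The ganglion labels matched markers of vagal and spinal afferents. The summed signal of vagal markers such as Htr3a, a serotonin receptor subunit, lay at 4153 to 6738 in captured NG neurons and 242 to 1115 in captured DRG neurons on Mouse430_2, over 4 of 5 listed genes. Htr3a made up most of this sum, with means of 4674 in NG and 481 in DRG. The sum of 5 spinal markers, Prrxl1 and Hox genes, ran from 163.4 to 530.8 in NG and from 2595 to 3935 in DRG on the same arrays. Most of it came from Prrxl1, with means of 244 in NG and 2322 in DRG. Hoxa9 averaged 4.79 in NG and 697 in DRG, while Hoxc9 was dim and alike in both (9.43). Over 2 of 5 vagal markers on MG-U74Av2, captured neurons had 4130 to 5720 in NG and 397.1 to 698.2 in DRG, and whole ganglia 3569 to 4980 in NG and 443.7 to 583.3 in DRG. Nearly all of this came from Htr3a, with means of 5026 in captured NG and 548 in captured DRG neurons. Phox2a, the other gene, was dim, with means of 20.5 in captured NG and 9.52 in captured DRG neurons. Spinal markers were dim on MG-U74Av2, where the sum over 4 genes was 98.5 to 113.6 in captured NG and 125 to 153.4 in captured DRG neurons. Captured samples still held signal of Schwann cell genes, with sums over 4 genes of 5405 to 6525 in NG and 5465 to 7530 in DRG on Mouse430_2. In each fit arrays were scaled to a common mean, testing required a signal over the array's 40th percentile (34.8 to 47.2 on MG-U74Av2, 16.8 to 28.6 on Mouse430_2) on a number of arrays no lower than the size of the smaller group, and p-values from limma were adjusted over all probe sets tested, with a threshold of 0.05.

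In captured neurons on Mouse430_2 the α2δ genes differed between the ganglia in both directions, Cacna2d1 being lower and Cacna2d3 higher in NG. Cacna2d1, the gabapentin-binding α2δ subunit, had 491.4, 874.8 and 1714 as its lowest, median and highest signal in NG neurons at probe set 1433643_at, against 1827, 2533 and 3427 in DRG neurons. Every NG array lay below every DRG array. The mean was 968 ± 415 in NG (SD, n = 11) and 2546 ± 558 in DRG (n = 9), a difference of -1.47 ± 0.19 on the log2 scale (SE; 2.77-fold lower, limma adjusted p = 1.53e-06). At 1440397_at, a dimmer probe set, NG neurons had 8.38, 21.6 and 74.7 (lowest, median, highest) against 58.1, 102 and 244 in DRG neurons. Here 1 range reached into the other, and only 5 of 11 NG arrays but all 9 DRG arrays lay above the 40th percentile. That difference was -1.88 ± 0.24 (adjusted p = 1.39e-06). The other tested probe set, 1449999_a_at, averaged 103 ± 63 in NG and 278 ± 184 in DRG, with overlapping ranges, and was lower by -1.27 ± 0.32 (adjusted p = 0.00481). The Cacna2d1 probe sets 1425861_x_at and 1441608_at, were above the 40th percentile on 2 and 0 of 20 arrays and were not tested.

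**Figure D1:**
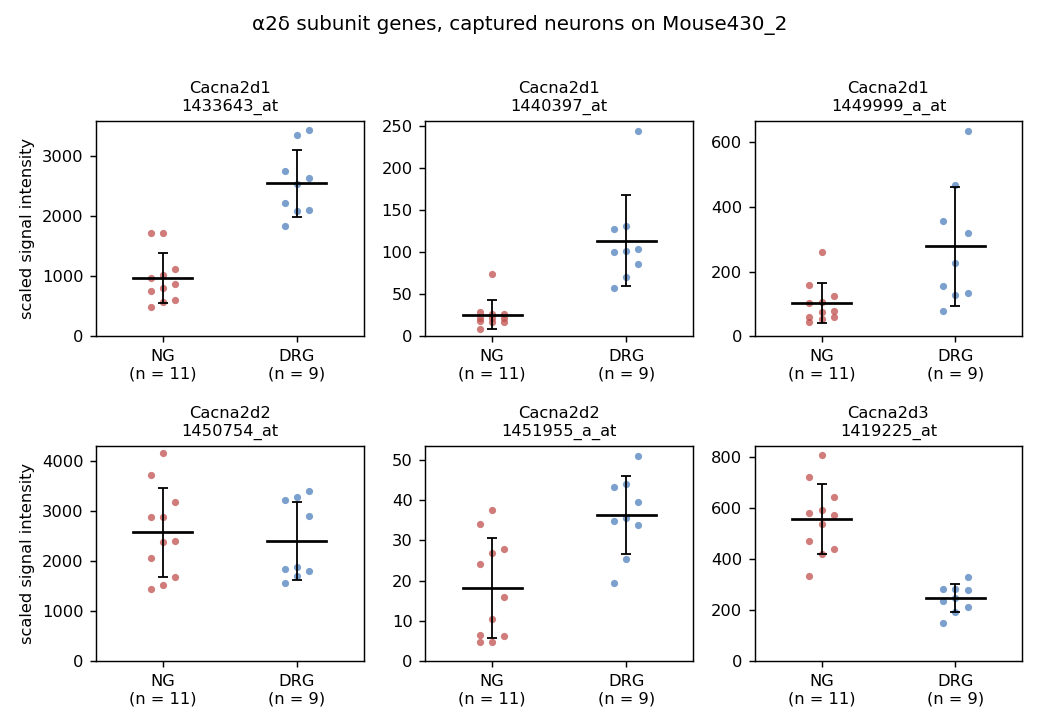
Scaled signal intensity (vertical axis, linear from 0) of the 6 tested probe sets of the α2δ genes in captured neurons on Mouse430_2; points are arrays, NG (n = 11) left of DRG (n = 9), thick bars are means and thin bars SD. Cacna2d1 at 1433643_at (means 968 in NG and 2546 in DRG) and Cacna2d3 at 1419225_at (556 in NG and 246 in DRG) separated the groups in opposite directions, while Cacna2d2 at 1450754_at overlapped.

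Cacna2d3, an α2δ subunit tied to heat pain sensing in flies and mice, was the reverse. Its only probe set, 1419225_at, had 332.8, 570.6 and 807.8 (lowest, median, highest) in NG neurons, against 151.3, 249.4 and 330.3 in DRG neurons. No overlap was seen, though the lowest NG array and the highest DRG array were close. Means were 556 ± 137 in NG and 246 ± 55 in DRG, a rise of 1.14 ± 0.16 on the log2 scale (2.21-fold, adjusted p = 3.94e-06). Cacna2d2, also a gabapentin-binding subunit, had 1436, 2404 and 4154 in NG and 1574, 1878 and 3406 in DRG at its bright probe set 1450754_at. These ranges lay almost on top of each other. The means were 2573 ± 886 in NG and 2401 ± 776 in DRG, and the difference of 0.09 had a 95% confidence interval of -0.31 to 0.48 (adjusted p = 0.809). A dim Cacna2d2 probe set, 1451955_a_at, averaged 18.1 ± 12.4 in NG, where 5 of 11 arrays passed the 40th percentile, and 36.3 ± 9.6 in DRG, where 8 of 9 did (-0.91 ± 0.26, adjusted p = 0.0127). The 2 probe sets of this gene thus gave different answers, and 1426185_at was too dim to test.

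Over all α1 and α2δ genes, 9 of 18 tested probe sets passed the threshold on Mouse430_2, 2 higher and 7 lower in NG, where 22.2% of the 28117 probe sets tested on the array did so, 9.72% higher and 12.5% lower. The median difference of the 18 was -0.34, and that of all probe sets tested was -0.05. Probe sets of 1 gene are not independent, and 3 of the 7 lower ones belong to Cacna2d1. The NG and DRG ranges did not overlap for 3 of the 18, those of 1433643_at, 1419225_at and the Cacna1c probe set 1435730_at, where 3.84% of all tested probe sets had separate ranges. The remaining 7 of the 25 probe sets had group means of 4.58 to 22.3 and were not tested. Fewer cells with a transcript and less RNA per cell cannot be told apart in these samples of pooled neurons. Afferent classes moved in the same comparison: markers of large-diameter afferents such as Nefh fell at 4 of 4 tested genes, with sums of 2371 to 3445 in NG and 6694 to 10490 in DRG. Markers of small-diameter nociceptors such as Tac1 fell at 3 of 4 tested of 7 listed genes, with sums of 1281 to 4284 in NG and 9418 to 13830 in DRG. Satellite glia markers fell at 4 of 6, with sums of 4152 to 5780 in NG and 5158 to 6280 in DRG, and Schwann cell markers at 0 of 4. Endothelial markers rose at 1 of 4 tested genes, with sums of 348.2 to 932 in NG and 185.7 to 408 in DRG; Kdr had 487 ± 190 in NG and 84.5 ± 42.6 in DRG, while Cdh5 averaged 26.7 in NG and 43 in DRG, and Eng 76.3 in NG and 88.2 in DRG. Muscle markers rose at 1 of 3, with sums of 183.3 to 352.7 in NG and 82.9 to 226 in DRG. The part of these markers in the channel results was not tested.

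**Figure D2:**
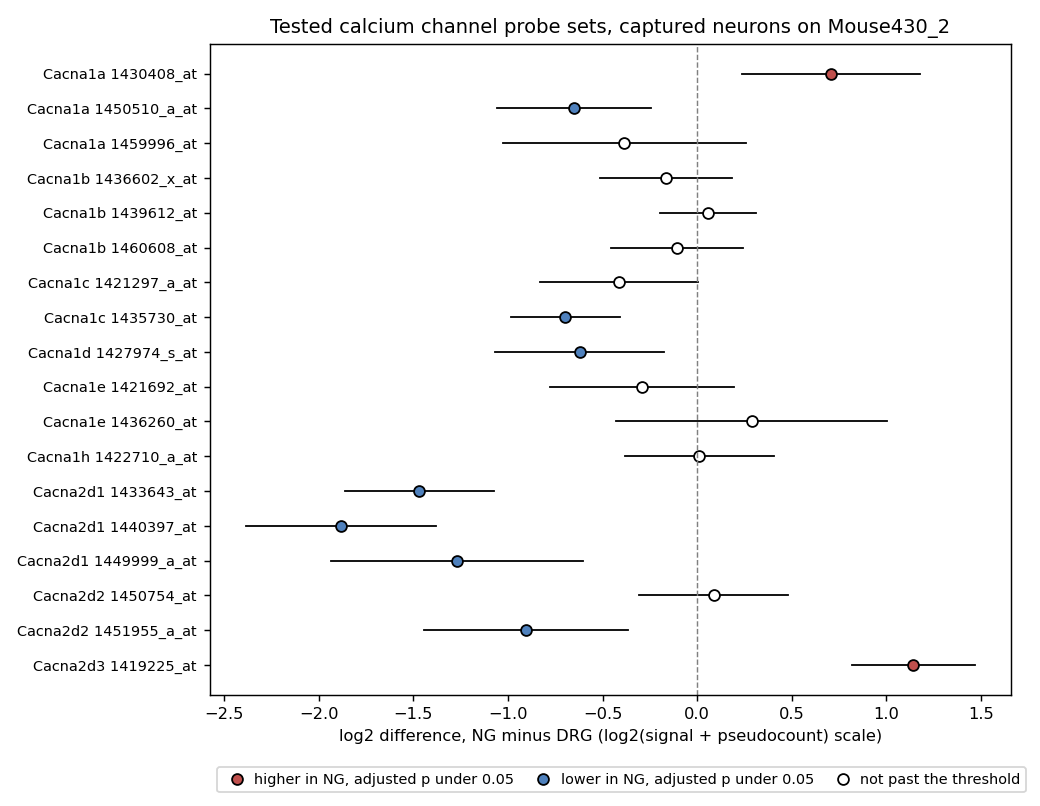
Log2 difference (horizontal axis, NG minus DRG) of the 18 tested probe sets in captured neurons on Mouse430_2, with 95% confidence intervals as lines; filled points passed the threshold, red where higher and blue where lower in NG. The 3 Cacna2d1 probe sets lie between -1.88 and -1.27, Cacna2d3 lies at 1.14, and the 3 Cacna1b probe sets lie around 0.

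Among the pore-forming genes, Cacna1c, the L-type channel of neurons and heart, was lower in captured NG neurons at its brighter probe set on Mouse430_2. At 1435730_at its lowest, median and highest signals were 127, 210 and 273 in NG and 273, 331 and 403 in DRG. The ranges touched without crossing. Means were 206 ± 45 in NG and 334 ± 47 in DRG, a difference of -0.70 ± 0.14 (1.62-fold lower, adjusted p = 0.000499). Its other probe set, 1421297_a_at, averaged 81.1 ± 28.2 in NG and 107 ± 28 in DRG and did not pass (-0.41, 95% confidence interval -0.83 to 0.00, adjusted p = 0.155). Cacna1d, the other L-type gene, averaged 30.5 ± 11.6 in NG and 51.5 ± 23.4 in DRG at 1427974_s_at and passed narrowly (-0.62 ± 0.22, adjusted p = 0.0389). The highest DRG array, at 108, stood above the other DRG arrays, and the call was lost in 17 of 32 alternative settings, 10 of which each left out 1 sample (5 DRG and 5 NG samples), with adjusted p of 0.0232 to 0.401 over all 32. The second Cacna1d probe set, 1428051_a_at, was not tested.

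Cacna1a, the P/Q-type channel, gave opposite calls at 2 dim probe sets. At 1430408_at, signals were 18.4, 59.2 and 88.0 (lowest, median, highest) in NG and 14.6, 27.2 and 51.2 in DRG, a difference of 0.71 ± 0.23 (adjusted p = 0.026). At 1450510_a_at they were 22.2, 43.3 and 54.7 in NG and 35.6, 68.2 and 114 in DRG, a difference of -0.65 ± 0.20 (adjusted p = 0.0180). The ranges overlapped at both. The call at 1430408_at was lost in 6 of 32 alternative settings, among them leaving out the DRG sample numbered 3, 10 or 15 (adjusted p of 0.0512 to 0.0593), and that at 1450510_a_at in 4, among them both other scalings (adjusted p of 0.0649 and 0.0859), so no direction is given for the gene. The probe set 1459996_at passed the filter but not the test (-0.38, adjusted p = 0.432), and 1444455_at was above the 40th percentile on 0 of 20 arrays.

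Cacna1b, the N-type channel, was bright and did not differ detectably between the ganglia. At 1439612_at its lowest, median and highest signals were 855, 1261 and 1620 in NG and 864, 1285 and 1646 in DRG. The difference was 0.06, with a 95% confidence interval of -0.20 to 0.31 (adjusted p = 0.799). The intervals at 1460608_at and 1436602_x_at were -0.46 to 0.24 and -0.52 to 0.18, so a difference as large as that of Cacna2d1 lay outside all 3. Cacna1h, the T-type channel, had 109, 158 and 338 in NG and 106, 160 and 262 in DRG at 1422710_a_at, a difference of 0.01 with an interval of -0.38 to 0.41 (adjusted p = 0.978). Its groups overlapped almost fully. Cacna1e, the R-type channel, was the most scattered: 1436260_at had 110, 266 and 600 in NG and 36.5, 261 and 469 in DRG. That spread left a wide interval of -0.43 to 1.003 around a difference of 0.29 (adjusted p = 0.63). The dim probe set 1421692_at of the same gene did not pass either (-0.29, adjusted p = 0.427).

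**Figure D3:**
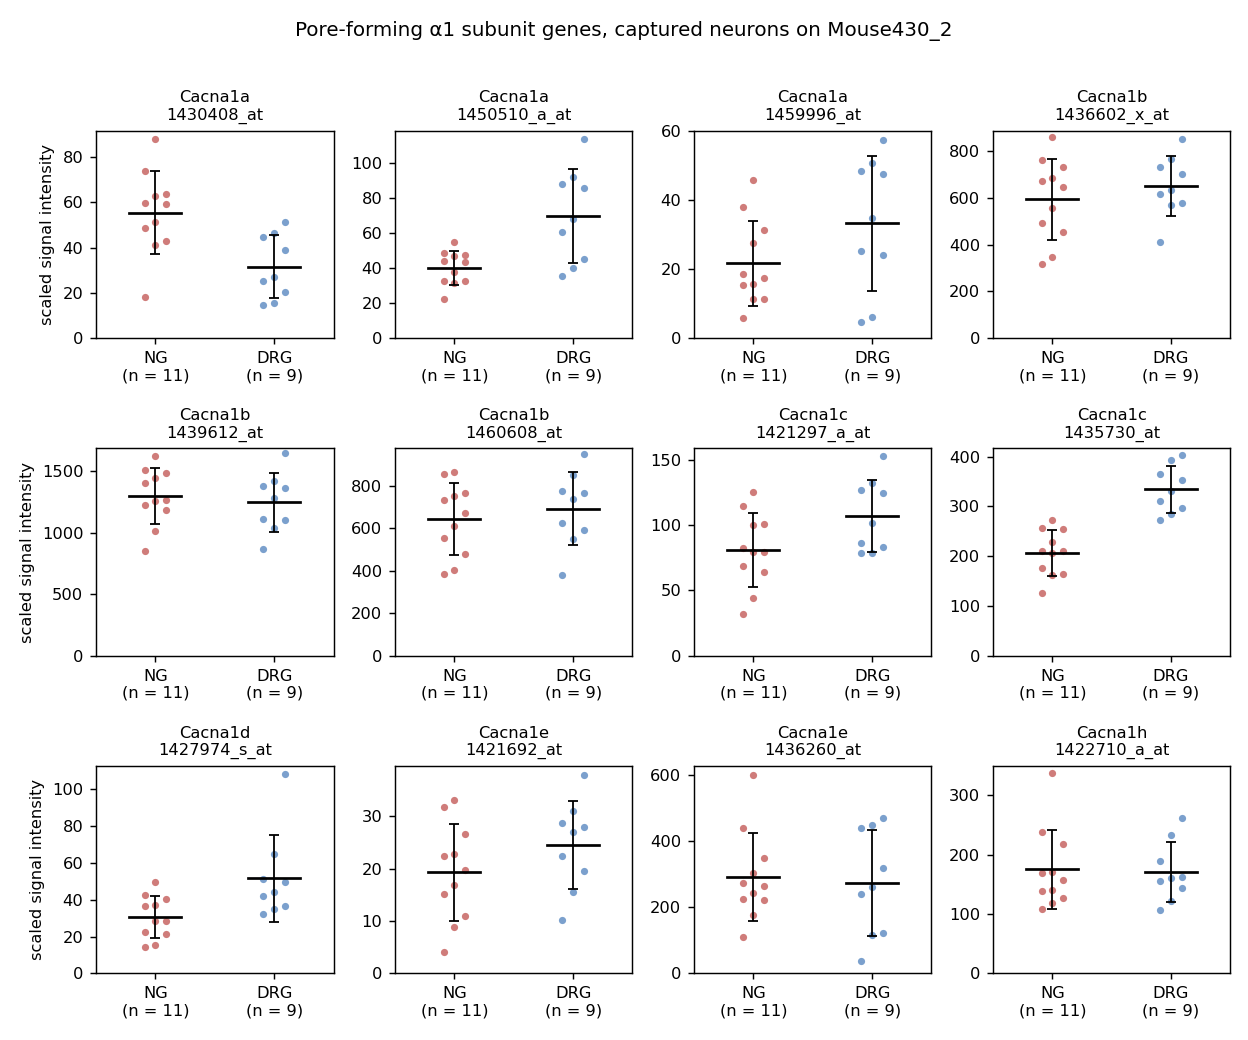
Scaled signal intensity (vertical axis, linear from 0) of the 12 tested α1 probe sets in captured neurons on Mouse430_2; points are arrays, NG (n = 11) left of DRG (n = 9), thick bars are means and thin bars SD. Cacna1c at 1435730_at separated the groups (means 206 in NG and 334 in DRG), Cacna1a differed in opposite directions at 1430408_at and 1450510_a_at, and Cacna1b, Cacna1e and Cacna1h overlapped.

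Captured neurons on MG-U74Av2 gave the Cacna2d3 difference again, and not those of Cacna2d1 and Cacna1c. Cacna2d3 at 98300_at had signals of 286, 290, 382, 389 and 491 in NG neurons, against 104, 163, 171, 186 and 187 in DRG neurons. All NG samples lay above all DRG samples. Means were 368 ± 84 in NG and 162 ± 34 in DRG, a rise of 1.13 ± 0.19 (2.19-fold, adjusted p = 0.000712). Cacna2d1 at 104510_at had 126, 172, 178, 268 and 459 in NG, against 102, 241, 271, 300 and 420 in DRG. The groups overlapped over most of their range, with the NG sample numbered 10 the highest of its group and the DRG sample numbered 10 the lowest. The difference was -0.16, with a 95% confidence interval of -0.91 to 0.60 (adjusted p = 0.789), and without the DRG sample numbered 10 it was -0.45 (adjusted p = 0.348). Cacna1b, Cacna1c and Cacna1h were tested and did not pass (differences of -0.17, -0.07 and -0.05). The 95% confidence interval of Cacna1c, -0.41 to 0.28, left out the -0.70 of 1435730_at on Mouse430_2. In all, 1 of 5 tested probe sets passed, against 21.8% of the 7580 tested on the array, and 1 of 5 had separate ranges, against 16.3% of all tested. The median difference of the 5 was -0.07, and that of all probe sets tested was 0.05. The probe set of Cacna1a was above the 40th percentile on 0 of 22 arrays, those of Cacna1e on 0 and 3 of 22, and they were not tested. Large-diameter markers fell at 3 of 4 tested genes here too, with sums of 2014 to 2351 in NG and 6281 to 8352 in DRG. Nociceptor markers fell at 1 of 2, with sums of 4636 to 6384 in NG and 8185 to 10540 in DRG. Of the satellite glia markers 3 of 5 fell, and Sox2 was at or below the 40th percentile on all 5 NG arrays.

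The 10 sample numbers on MG-U74Av2 all recur on Mouse430_2, where 6 NG and 4 DRG numbers are further samples; the sources used here do not say whether a recurring number is the same RNA. In a fit chosen after the data were seen, the 5 NG and 5 DRG recurring numbers alone gave means of 1235 in NG and 2152 in DRG for Cacna2d1 at 1433643_at (-0.87 ± 0.20, adjusted p = 0.00634). The further samples alone gave -2.06 (adjusted p = 5.11e-06). At 1449999_a_at the recurring numbers gave -0.14 (adjusted p = 0.831) and the further samples -2.51 (adjusted p = 1.67e-05), whereas 1440397_at gave -1.77 (adjusted p = 7.57e-05) and -2.03 (adjusted p = 0.00360). Among the 5 NG recurring numbers, number 10 had the highest Cacna2d1 signal of all captured NG arrays at 104510_at (459) and at 1433643_at (1714, with number 14 at 1711). It was also highest at 1449999_a_at (261), but not at 1440397_at, where it had 27.3 and number 2 had 74.7. Cacna2d3 was higher in NG in both sets, by 1.41 (adjusted p = 0.000145) in recurring numbers and 0.87 (adjusted p = 0.0121) in the further ones. Cacna2d2 at 1450754_at gave 0.74 (adjusted p = 0.00725) in recurring numbers and -0.56 (adjusted p = 0.0863) in the further ones, and Cacna1e at 1436260_at gave 1.24 (adjusted p = 0.0301) in recurring numbers and -0.81 (adjusted p = 0.126) in the further ones. The difference between the 2 sets was not tested.

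In whole ganglia Cacna2d1 was lower in NG and the other tested genes did not pass. Its signals at 104510_at were 119, 133, 159, 169, 191, 247 and 514 in NG, against 535, 540, 562, 600 and 796 in DRG. No NG sample reached the lowest DRG sample, but the NG sample numbered 73, at 514, stood far above the other NG samples. Means were 219 ± 137 in NG and 607 ± 109 in DRG, a difference of -1.57 ± 0.27 (2.96-fold lower, adjusted p = 0.000319), and -1.79 without the NG sample numbered 73. Cacna2d3 had 200, 212, 237, 240, 262, 268 and 348 in NG, against 247, 268, 277, 366 and 379 in DRG. These ranges overlapped, and the difference of -0.27 did not pass (95% confidence interval -0.57 to 0.03, adjusted p = 0.150), although it passed without the NG sample numbered 20 (-0.35, adjusted p = 0.0497). Cacna1b at 98360_at averaged 98.0 ± 19.5 in NG and 118 ± 15 in DRG (-0.26, adjusted p = 0.166), and Cacna1c at 98386_s_at 195 ± 50 in NG and 203 ± 31 in DRG (-0.08, adjusted p = 0.755). Thus 1 of 4 tested probe sets passed, against 35.4% of the 7688 tested on the array, and 1 of 4 had separate ranges, against 18.1%. The median difference of the 4 was -0.27, and that of all probe sets tested was 0.05. Large-diameter markers fell at 2 of 4 genes, with sums of 3612 to 4408 in NG and 5487 to 6543 in DRG, and nociceptor markers at 2 of 2, with sums of 3087 to 3853 in NG and 4762 to 6121 in DRG. Muscle sums were 451.8 to 2198 in NG and 196.4 to 689.5 in DRG, and endothelial sums 966.8 to 1634 in NG and 610.8 to 845.8 in DRG. The part of these cells in the channel results was not tested.

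**Figure D4:**
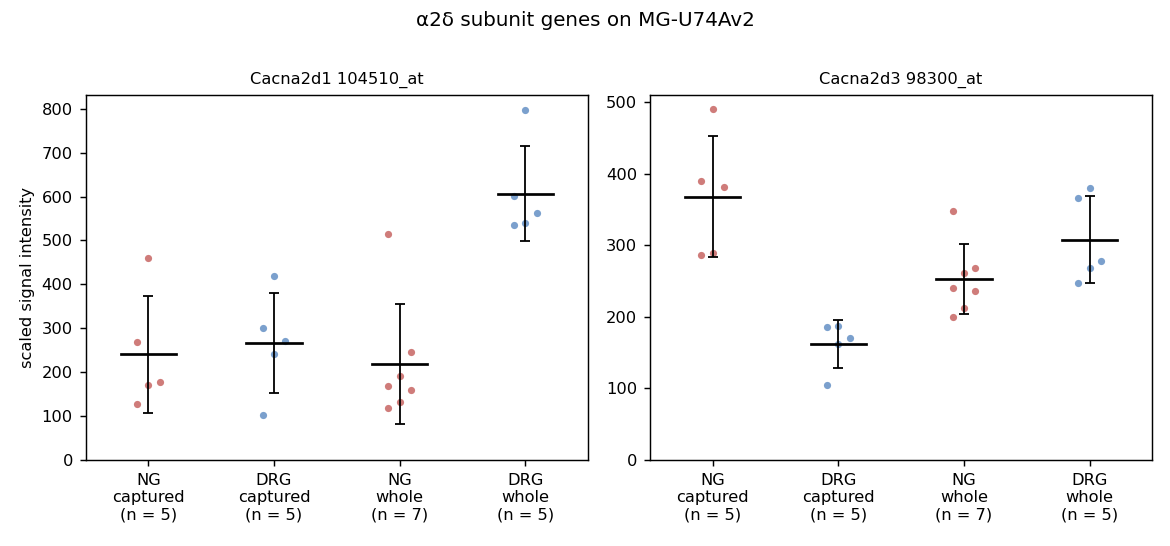
Scaled signal intensity (vertical axes, linear from 0) of Cacna2d1 and Cacna2d3 on MG-U74Av2 in captured neurons (NG n = 5, DRG n = 5) and whole ganglia (NG n = 7, DRG n = 5); points are arrays, thick bars are means and thin bars SD. Whole DRG stood apart for Cacna2d1 (mean 607 against 219 to 267 in the other groups), and captured DRG was lowest for Cacna2d3 (mean 162).

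Captured neurons were set against whole ganglia in a joint fit of the 4 groups on MG-U74Av2. Of 6 pan-neuronal markers, 3 rose and 3 fell in NG, and 2 rose and 1 fell in DRG, with mean sums of 29131 in captured and 28636 in whole NG, and of 25739 in captured and 25925 in whole DRG. Capture, RNA amplification and labelling changed together between these experiments and cannot be told apart; the actin 3′ to 5′ log2 ratio was 5.82 ± 0.23 in captured NG and 5.45 ± 0.18 in captured DRG, against 2.94 ± 0.40 in whole NG and 2.80 ± 0.08 in whole DRG. In DRG, Cacna2d1 averaged 267 ± 114 in captured neurons and 607 ± 109 in whole ganglia (-1.26 ± 0.34, adjusted p = 0.00360), with no overlap. Cacna2d3 averaged 162 ± 34 in captured DRG neurons and 308 ± 61 in whole DRG (-0.89 ± 0.18, adjusted p = 0.000181), again with no overlap. Both genes were thus lower in captured DRG neurons than in whole DRG, whose samples carry other numbers than the captured ones. In NG, Cacna2d3 averaged 368 ± 84 in captured neurons and 252 ± 49 in whole ganglia (0.51 ± 0.16, adjusted p = 0.00934), with overlapping ranges, and Cacna2d1 did not pass (0.15, 95% confidence interval -0.50 to 0.80, adjusted p = 0.708). Cacna1b averaged 75.7 ± 39.1 in captured and 98.0 ± 19.5 in whole NG (-0.43, adjusted p = 0.113), and 82.2 ± 29.7 in captured and 118 ± 15 in whole DRG (-0.53, adjusted p = 0.0848). It passed in NG without the captured sample numbered 3 or 8 (-0.62 and -0.58, adjusted p of 0.0234 and 0.0421) and in DRG without the captured sample numbered 3 (-0.68, adjusted p = 0.0331). In DRG it also passed with array weights (-0.55, adjusted p = 0.0182) and without scaling (-0.80, adjusted p = 0.0326). The counts were 1 of 5 tested probe sets in NG, where 55.4% of all 8307 passed, and 2 of 5 in DRG, where 47.2% passed. Separate ranges were found for 0 of 5 in NG, against 28.1% of all tested, and 2 of 5 in DRG, against 37.3%. The median difference of the 5 was 0.12 in NG and -0.53 in DRG, and that of all probe sets tested was 0.02 in NG and 0.03 in DRG. Cell markers moved in the same comparisons. In DRG, Schwann cell markers fell at 3 and rose at 1 of 4 genes, with sums of 2293 to 3615 in captured and 5668 to 7931 in whole samples, and nociceptor markers rose at 2 of 2, with sums of 8185 to 10540 in captured and 4762 to 6121 in whole samples. Satellite glia markers in DRG rose at 2 and fell at 1 of 5. Their sums were 10140 to 12400 in captured and 8263 to 11280 in whole DRG. Large-diameter markers in DRG rose at 1 and fell at 1 of 4, and spinal markers fell at 2 of 3 tested. In NG, Schwann cell markers fell at 3 of 4, with sums of 2504 to 2809 in captured and 4982 to 6883 in whole samples. Satellite glia markers in NG fell at 3 and rose at 1 of 5, with sums of 9030 to 10400 in captured and 10790 to 13460 in whole samples, and large-diameter markers fell at 3 of 4, with sums of 2014 to 2351 in captured and 3612 to 4408 in whole samples. The part of these markers in the channel results was not tested.

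The ganglion difference itself was then compared between captured neurons and whole ganglia. For Cacna2d3 the NG minus DRG difference was 1.13 in captured neurons and -0.27 in whole ganglia in the joint fit, and the difference between these, 1.40 ± 0.24, passed (adjusted p = 0.000166). For Cacna2d1 it was -0.16 in captured neurons and -1.57 in whole ganglia, a difference of 1.41 ± 0.46 (adjusted p = 0.0347). That call was lost on leaving out any 1 of 9 samples: DRG whole 70 or 26, NG whole 46, 36, 39 or 23, DRG captured 10, or NG captured 10 or 14, with values of 1.12 to 1.41 and adjusted p of 0.0513 to 0.0781. Thus 2 of 5 tested probe sets passed, where 18.2% of all 8307 did, and the median of the 5 was 0.09 against -0.02 over all. Ordered by level, Cacna2d1 was highest in whole DRG, above captured DRG, captured NG and whole NG, and the last 3 did not differ beyond their spread (captured DRG against whole NG 0.31, adjusted p = 0.435, where 50.3% of all probe sets passed). Cacna2d3 ran from captured NG over whole DRG and whole NG to captured DRG. In that order captured NG and whole DRG did not differ beyond their spread (0.24, adjusted p = 0.246, where 58.5% of all passed), nor did whole DRG and whole NG (-0.27, NG minus DRG, adjusted p = 0.230 in the joint fit, where 27.9% of all passed), while captured DRG was below whole NG (-0.61, adjusted p = 0.00271).

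Other genes of the calcium channel pathway were counted over lists in captured neurons on Mouse430_2. Of all 28117 probe sets tested there, 22.2% passed, 9.72% higher and 12.5% lower in NG. The lists use 1 probe set a gene, the brightest tested, so the bases of the 2 shares differ. Of the cytosolic beta subunits, which bring α1 to the membrane, 2 of 4 listed genes were tested and 1 fell: Cacnb4, with 373 ± 152 in NG and 1134 ± 222 in DRG (-1.64, adjusted p = 4.74e-08). The list of other α1, α2δ and gamma genes held 11, of which 9 were tested, 2 rose and 1 fell. The T-type gene Cacna1g had 39.8 ± 15.9 in NG and 17.7 ± 10.1 in DRG (0.93, adjusted p = 0.00684). Its DRG mean was dim, within the range of the 40th percentile of these arrays (16.8 to 28.6). Cacng2, which also traffics AMPA receptors, rose by 0.87 (adjusted p = 0.000119), and Cacng5, an AMPA receptor partner as well, fell by 1.03 on the log2 scale (adjusted p = 1.32e-05). Among channel regulators, 5 of 9 tested fell and 0 rose, among them Rem2, a small GTPase that dampens the current (-1.40, adjusted p = 0.00248), and Stac, an adaptor of L-type channels (-0.88, adjusted p = 0.000208). The NG mean of Rem2, 18.1, lay in the range of the 40th percentile too.

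Genes that clear, store or sense calcium were counted in the same way. Of the pumps and exchangers, 4 of 8 tested fell and 0 rose. Slc24a2, a sodium, calcium and potassium exchanger, had 106 ± 58 in NG and 721 ± 213 in DRG (-2.86, adjusted p = 3.80e-08). Atp2a3, a pump that refills the endoplasmic reticulum, fell by 2.23 on the log2 scale (adjusted p = 7.09e-07). It had 22.2 ± 15.9 in NG and 121 ± 50 in DRG. The NG mean of Atp2a3 was dim, within the range of the signal limit for testing on these arrays (16.8 to 28.6). The size of its fall rests on that dim mean. Of the store release and refilling genes, 2 of 9 fell and 1 rose. Ryr2, the release channel opened by calcium itself, had 60.4 ± 29.1 in NG and 349 ± 94 in DRG (-2.47, adjusted p = 4.86e-09), Orai2 gave -1.04 (adjusted p = 0.000156) and Itpr2 gave 0.59 (adjusted p = 0.00604). Of the calcium-dependent kinases and phosphatase genes, 4 of 9 fell and 1 rose. Camk2g had 728 ± 203 in NG and 3002 ± 622 in DRG (-2.06, adjusted p = 1.41e-10), the calcineurin subunit gene Ppp3ca gave -1.69 (adjusted p = 2.91e-09) and Camk4 gave 0.79 (adjusted p = 0.000124). Of the buffers and sensors, 2 of 5 rose and 1 fell: Hpca gave 0.997 (adjusted p = 9.26e-06), Hpcal1 0.55 (adjusted p = 0.00311) and Pvalb, a calcium buffer also on the large-diameter marker list, -1.62 (adjusted p = 0.000145). Of the calcium-activated channels 1 of 6 fell, the potassium channel gene Kcnn1 (-0.80, adjusted p = 0.000268). Medians over the tested genes of these lists lay between -0.84 for the beta subunits and 0.00 for buffers and sensors, against -0.05 over all probe sets tested.

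**Figure D5:**
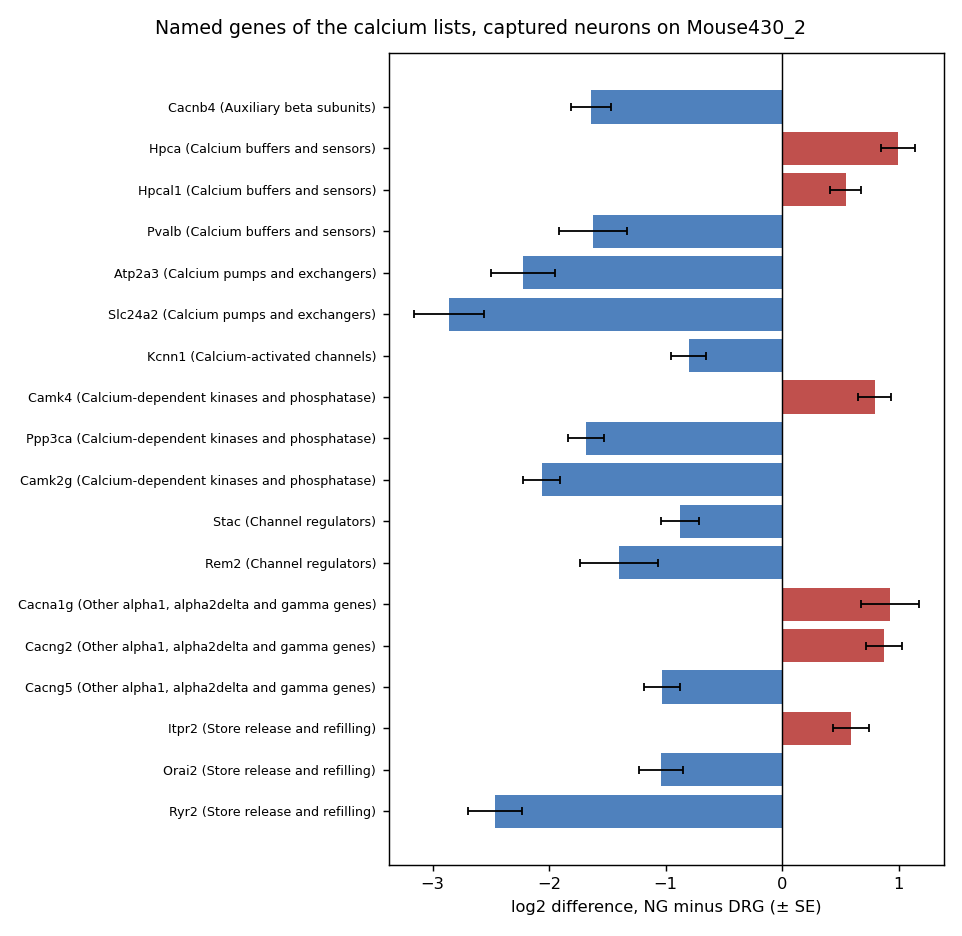
Log2 difference (horizontal axis, NG minus DRG, bars with SE) of the genes named from the calcium lists in captured neurons on Mouse430_2, grouped by list; red bars are higher and blue bars lower in NG, and all passed the threshold. The bars run from -2.86 for Slc24a2 to 0.997 for Hpca.

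On MG-U74Av2 fewer of these genes were tested. In captured neurons Ryr2 had 56.1 ± 25.98 in NG and 446 ± 56 in DRG (-2.87, adjusted p = 3.50e-06), Ppp3ca gave -1.73 (adjusted p = 4.34e-06), Atp2a3 -1.74 (adjusted p = 0.00148), Kcnn1 -0.90 (adjusted p = 0.000147), Stac -0.55 (adjusted p = 0.0386), Hpca 0.84 (adjusted p = 0.00202) and Cacng2 0.87 (adjusted p = 0.0152). Atp2b2, a plasma membrane pump, gave -1.50 (adjusted p = 0.000275), and Stim1, the sensor of store calcium, 0.52 (adjusted p = 0.0484). Of these 9 genes named on MG-U74Av2, 8 also passed in the same direction on Mouse430_2, and Stim1 did not pass there (0.44, adjusted p = 0.112). The same share over all genes that passed on MG-U74Av2 was not counted, so this count is not a result about calcium genes. The sample numbers on MG-U74Av2 all recur on Mouse430_2, and whether they are the same RNA is not stated. In whole ganglia Cacng2 ran the other way from captured neurons, with 36.9 ± 18.2 in NG and 78.1 ± 26.4 in DRG (-0.93, adjusted p = 0.0103), while Ryr2 (-0.90, adjusted p = 0.00332), Ppp3ca (-0.59, adjusted p = 0.000354), Kcnn1 (-1.52, adjusted p = 2.16e-09) and Stac (-0.56, adjusted p = 0.00109) were lower in NG there as well, as was Atp2b2 (-1.58, adjusted p = 8.45e-05). The Cacng2 mean in whole NG was dim, within the range of the 40th percentile of these arrays (34.8 to 47.2). That of Atp2b2 in whole NG, 23.2 ± 16.2, lay below this range. Hpca was higher in whole NG (0.55, adjusted p = 0.0117), and Atp2a3 (0.35, adjusted p = 0.190) and Stim1 (-0.04, adjusted p = 0.856) did not pass there. Captured against whole NG, Cacng2 had 267 ± 72 in captured neurons and 36.9 ± 18.2 in whole ganglia (2.58, adjusted p = 4.75e-09), a difference that rests on the same dim mean. The buffer gene Calb1 had 50.95 ± 10.02 in NG and 205 ± 37 in DRG in whole ganglia (-1.79, adjusted p = 5.52e-08), and did not pass among captured samples, where MG-U74Av2 gave 33.2 ± 40.1 for NG against 71.4 ± 19.3 for DRG (-1.34, adjusted p = 0.0627) and Mouse430_2 a difference of -0.39 (adjusted p = 0.386).

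The patterns most like those of the 3 member probe sets with separate ranges on Mouse430_2 were found by the smallest root mean square difference of centred log2 values over the 20 arrays, among 23628 probe sets of other single genes. For Cacna2d1 at 1433643_at these were Atp13a3 (0.29), Ndfip2 (0.29) and Ogfrl1 (0.31), where the median probe set stood at 0.97. For Cacna2d3 they were Gse1 (0.28), Grk3 (0.29) and Lrp12 (0.29), against a median of 0.81. For Cacna1c at 1435730_at they were Zfp719 (0.20), Cd24a (0.23) and Thap1 (0.23), against a median of 0.63. The arrays share scaling and ganglion groups, so likeness of pattern is a description.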

How the data were processed

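The authors deposited 1 signal intensity per probe set and array, on a linear scale, produced by MAS5, as the submitters' processing notes say; the sources used here give neither its version nor any scaling. Deposited arrays differed in mean, so each was scaled to a 2% trimmed mean common to all arrays of its type. Signals were analysed as log2(signal + pseudocount), with the 20th percentile of the fit as pseudocount (11.8 for whole ganglia, 11.0 and 7.47 for captured neurons on MG-U74Av2 and Mouse430_2, 11.4 for the joint fit), so fold differences of dim probe sets are understated. Control probe sets (66 and 64) were left out. Tests were two-sided, using lmFit and a trended, robust eBayes of limma (version 3.58.1) in R (version 4.3.3; data.table, version 1.17.8, read the files), and adjusted by Benjamini-Hochberg over all probe sets tested; the procedure was tested on simulated data. Figures were drawn with matplotlib 3.10.9. Differences are NG minus DRG, or captured minus whole.

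Symbols came from the platform annotation, where 10855 of 12488 probe sets on MG-U74Av2 and 34958 of 45101 on Mouse430_2 had 1 symbol, and all 8 and 25 member probe sets matched RefSeq gene identifiers. A gene of a list was read at its brightest tested probe set, and up to 2 per list and direction were named by size. The members and lists were chosen with earlier results of these data known. The number of arrays per group limits the precision; Pearson correlations within groups were 0.886 to 0.983, and no 2 arrays were copies. Alternatives were scaling, pseudocount, filter, array weights, a sample number block, a Gapdh 3′ to 5′ ratio covariate, subsets of sample numbers and leaving out each sample. A change of sign where neither value passed was counted as no change.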

Additional observations from a re-analysis of the deposited data

Results flagged for a closer look

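In whole DRG the sample numbered 70 had a Cacna2d1 signal of 796, set apart by its distance from the others, which ran from 535.2 to 600.2. In captured DRG neurons on MG-U74Av2 the sample numbered 8 had a Cacna2d3 signal of 104, below the others at 162.5 to 187.2. These were the 2 groups with a sample set apart among 36 looked at, and chance alone sets apart about 1 in 20 such groups. The NG minus DRG difference differed between captured neurons and whole ganglia by an interaction test for Cacna2d1 (1.41) and Cacna2d3 (1.40), with the values in the report; the cause was not tested.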

How the results depend on the processing

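Of 1218 values of the 42 member results under alternatives, 1165 kept their side of the threshold, 41 lost and 12 gained a call, and 0 called values reversed. In whole ganglia the count of called probe sets was 2 in place of 1 with quantile normalization, with the same median on every array, without scaling and with array weights: Cacna1b joined at -0.34 to -0.36 (adjusted p of 0.0446 to 0.0488), and Cacna2d3 without scaling, at -0.63 (adjusted p = 0.0438). Between captured and whole NG the count was 0 without scaling (Cacna2d3 0.51, adjusted p = 0.0842). Leaving out 1 sample at a time gave 1 to 2 in whole ganglia (2 without the NG whole sample numbered 20), 1 to 1 in captured neurons on MG-U74Av2, 7 to 9 on Mouse430_2, 1 to 2 for captured against whole in NG (2 without the NG captured sample numbered 3 or 8, when Cacna1b joined), 2 to 3 in DRG, and 1 to 2 for the change of the ganglion difference. With the sample number as a replicate block the count on Mouse430_2 was 5 in place of 9. Both Cacna1a calls, Cacna1d and Cacna2d1 at 1449999_a_at were lost (adjusted p of 0.0689 to 0.349). Same-numbered samples correlated at -0.15 to 0.16 over 7 pairs there and at -0.11 to 0.11 over 4 pairs on MG-U74Av2. In each, 1 sample had its own number as its best match. Such correlations cannot tell whether same-numbered samples share an animal or a batch, and the sources used here do not say. No paired analysis was possible in whole ganglia because the ganglia share 1 number. Scaling to the same median moved the median of all probe sets by 0.14 on Mouse430_2, by -0.10 in whole ganglia and by 0.16 for captured against whole NG, and no scaling moved it by -0.34 in whole ganglia; the share of calls higher in NG was 43.7% on Mouse430_2, 63.5% with the same median and 24.4% without scaling, in captured neurons on MG-U74Av2 48% and 35.4% without scaling, and in whole ganglia 55.4%, 40% with the same median and 11.8% without scaling. The share of positive calls was 42.4% for the change of the ganglion difference, 59.9% with the same median and 69.3% without scaling, 47.3% for captured against whole NG and 60.9% with the same median, and 48.5% in DRG and 18% without scaling. The Cacna2d1 and Cacna2d3 directions on Mouse430_2 held under all of these. Dim probe sets, such as those of Cacna1a, have low signals whose order is limited by background.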
